A study of Mus musculus with 2 samples.

Results

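The CDK inhibitors that act on the G1 kinases were described in 2 small cell lung cancer (SCLC) tumors of a triple-knockout (TKO) mouse, in cells whose genotype lacks Rb1 and Rbl2, which encode retinoblastoma family proteins that these kinases act on. The genes comprised 4 INK4 members (Cdkn2a, Cdkn2b, Cdkn2c and Cdkn2d) and 2 CIP/KIP members (Cdkn1b and Cdkn1c), and all 6 were present among the 27998 genes of the count matrices. They were chosen by their symbols, with earlier results of these data known. The third CIP/KIP gene, Cdkn1a, was read with the pathway genes. Both tumors carried the genotype Rb-/-; Trp53-/-; Rbl2-/- with a Rosa26 membrane-Tomato/membrane-GFP reporter, on a mixed C57BL/6, 129/SVJ and 129/SvOla background. The genotype label of TKO1 ends in further characters whose meaning is unclear, and the series text speaks of different triple knockout models, so that a genetic difference between the mice beyond these alleles was not tested. Deletion was started by Adeno-CMV-cre given to the lung, so that any infected lung cell could recombine while uninfected stroma kept its alleles. The mice were 8 to 9 months old at harvest, 7 months after induction. From each mouse 1 tumor was dissected and DAPI-negative live cells were sorted, and 1 10x Genomics Chromium library was made. With 1 library per tumor there was no replicate of either tumor, no test was possible, and a difference between tumors could not be told apart from one between mice, sorts or libraries.

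INK4 proteins bind the kinases CDK4 and CDK6 and keep them from their D-type cyclins. CIP/KIP proteins bind assembled cyclin-CDK complexes and mainly inhibit CDK2. Both brakes are known to act in large part through the pocket proteins RB1, RBL1 and RBL2, which hold E2F factors in check until the kinases phosphorylate them, so that INK4 genes are often highly expressed in tumors that have lost RB1. The Cdkn2a locus has a second product, ARF, which restrains MDM2 and thereby stabilises p53, the other protein missing from these tumors.

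Barcodes in which over 500 genes were detected were retained. TKO1 kept 3193 of its 4514 barcodes, with 4566658 unique molecular identifiers (UMIs, each the count of 1 captured RNA molecule). TKO2 kept 3568 of 3816, with 8105281 UMIs. Retained cells held a median of 1223 UMIs in TKO1 and 1960 in TKO2, and 11 barcodes were retained in both libraries. Ribosomal protein genes took 10.7% of UMIs in TKO1 and 22.8% in TKO2. Levels are given in CPM, a gene's UMIs per 1000000 UMIs of the same cells, with exact 95% Poisson intervals, which, like all intervals here, cover counting error only. Clusters of each tumor were named from fixed cell type markers. Of TKO1, 1848 cells in 5 clusters were neuroendocrine-like, and of TKO2, 3381 cells in 8 clusters. The 18 neuroendocrine markers summed to 20901 CPM in the former and 2036 CPM in the latter, against 4552 and 746 CPM in the macrophage-like cells of the same tumors. The TKO2 sum was under those of the club-like cells of TKO1 (6798 CPM) and of cluster 9 of TKO2, left unnamed (8692 CPM). The name neuroendocrine-like thus means markers over the macrophage-like cells of the same tumor, with 11 to 14 of the 18 at 2-fold in the TKO2 clusters. These markers were lower in TKO2 than in TKO1. The 16 macrophage markers summed to 73.5 and 20.4 CPM in the neuroendocrine-like cells of TKO1 and TKO2. Clusters 2, 3 and 4 of TKO1 (1142 cells, 35.8% of retained cells) carried neuroendocrine markers at 27909 CPM in sum, more than the neuroendocrine-like cells. They were set apart by the naming rule alone, as their 10 leading genes held more markers of another type than neuroendocrine ones. These were 1 ciliated marker in cluster 2, 4 ciliated markers in cluster 4 and 1 fibroblast marker in cluster 3. The genes deleted in the model could not be checked, since reads at the 3' end do not show whether a floxed exon is missing. In neuroendocrine-like cells Rb1 stood at 82.7 CPM in TKO1 and 15.2 CPM in TKO2, Rbl2 at 8.89 and 1.80 CPM, and Trp53 at 49.9 and 63.0 CPM.

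The genes lie on 4 mouse chromosomes (GRCm38, the assembly that mm10 names). Cdkn2a (ENSMUSG00000044303, chr4:89274471-89294653, minus strand) and Cdkn2b (ENSMUSG00000073802, chr4:89306299-89311039, minus strand) are neighbours, and Cdkn2c (ENSMUSG00000028551, chr4:109660876-109667189, minus strand) lies on the same chromosome. Cdkn2d (ENSMUSG00000096472) lies at chr9:21288410-21291407 on the minus strand, Cdkn1b (ENSMUSG00000003031) at chr6:134920401-134925513 on the plus strand and Cdkn1c (ENSMUSG00000037664) at chr7:143458339-143461050 on the minus strand, where an annotated antisense gene, Gm44732, overlaps it. Cdkn2a has 2 annotated transcripts with separate starts and shared downstream exons, so its UMIs count p16 (INK4A) and ARF messages together. RefSeq promoter windows of 250 bases before to 50 after a start were matched for 5 of the 6 genes, 7 windows in all. An E2F word (TTTCCCGC, TTTGGCGC, TTTCGCGC or TTTGCCGC, either strand) was found in 1 of the 7, the ARF window of Cdkn2a, 99 bases before the start, and in 2.26% of the 32851 windows of the table. A CHR word, the element found before many mitotic genes (TTTGAA or TTCGAA, either strand), was found in 1 window, that of Cdkn2b, against 19.2% of all windows, and CACGTG in 1, that of Cdkn2c, against 7.15%. No 2 matches shared a window. The single Cdkn2d window held none of these words, which says only that these letters are absent there. The parts of the windows outside annotated exons are shown for the pair of Cdkn2a starts that feed a single count, and for Cdkn2c and Cdkn1b, the genes with the widest difference between tumors. Capitals mark the E2F word.
Cdkn2a, ARF start, chr4:89294654-89294869, minus strand: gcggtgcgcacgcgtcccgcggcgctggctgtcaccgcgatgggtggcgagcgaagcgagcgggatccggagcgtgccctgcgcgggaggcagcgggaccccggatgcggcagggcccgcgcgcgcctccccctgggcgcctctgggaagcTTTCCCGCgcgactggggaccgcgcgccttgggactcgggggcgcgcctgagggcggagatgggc
Cdkn2a, INK4A start, chr4:89282193-89282442, minus strand: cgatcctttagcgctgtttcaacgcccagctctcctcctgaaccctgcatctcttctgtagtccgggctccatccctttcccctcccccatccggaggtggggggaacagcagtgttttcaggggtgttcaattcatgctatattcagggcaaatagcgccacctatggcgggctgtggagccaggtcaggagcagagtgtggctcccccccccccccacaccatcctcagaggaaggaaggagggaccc
Cdkn2c, start of the shorter transcript, chr4:109665373-109665609, minus strand: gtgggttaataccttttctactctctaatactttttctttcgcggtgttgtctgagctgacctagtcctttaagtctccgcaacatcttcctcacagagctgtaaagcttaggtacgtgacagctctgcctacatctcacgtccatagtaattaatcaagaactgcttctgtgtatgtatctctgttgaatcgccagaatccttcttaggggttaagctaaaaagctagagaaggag
Cdkn1b, chr6:134920151-134920400, plus strand: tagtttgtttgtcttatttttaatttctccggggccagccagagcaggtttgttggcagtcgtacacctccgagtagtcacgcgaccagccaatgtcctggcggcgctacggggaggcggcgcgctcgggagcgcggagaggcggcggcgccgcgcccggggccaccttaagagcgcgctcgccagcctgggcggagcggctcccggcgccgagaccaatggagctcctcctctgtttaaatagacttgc

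In neuroendocrine-like cells the 6 genes together gave 2089 CPM in TKO1 (5404 UMIs, interval 2034 to 2146) and 821 CPM in TKO2 (6371 UMIs, 801 to 841). INK4 genes supplied 81.8% of these UMIs in TKO1 and 74.5% in TKO2. These shares leave out the third CIP/KIP gene, Cdkn1a, whose level in TKO1, given below, was over that of Cdkn2a. Counting it would lower the INK4 share far more in TKO1 than in TKO2, so the order of the tumors rests on leaving it out. A UMI marks the 3' end of a transcript and does not grow with its length, although capture can differ between genes. The leading member was not the same gene. In TKO1 Cdkn2c had 38.4% of the members' UMIs and Cdkn2a 29.3%, whereas in TKO2 Cdkn2a had 52.6%, Cdkn1c 23.0% and Cdkn2c 9.32%.

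Cdkn2c, which encodes the INK4 protein p18, stood at 801 CPM in TKO1 (2073 UMIs, 767 to 837) and at 76.5 CPM in TKO2 (594 UMIs, 70.5 to 83.0), a raw ratio of 10.5-fold. Because TKO1 was shifted upward by 0.30 on the log2 scale at the median of the 11575 genes with at least 20 UMIs, ratios between tumors are given relative to that median, and a gene was called when it lay at least 2-fold from it. On this scale Cdkn2c was 8.48-fold higher in TKO1 (7.73 to 9.30). Cdkn1b, which encodes p27, had 141 CPM in TKO1 (364 UMIs) and 19.97 CPM in TKO2 (155 UMIs) and was 5.70-fold higher in TKO1 (4.71 to 6.93). For both genes the intervals of the 2 tumors were far apart. Cdkn2b, which encodes p15, was scarce in both, with 62 UMIs (24.0 CPM) in TKO1 and 48 UMIs (6.19 CPM) in TKO2, a relative log2 ratio of 1.65 (1.08 to 2.22). Cdkn2d, which encodes the INK4 protein p19, had 272 CPM in TKO1 (703 UMIs) and 96.9 CPM in TKO2 (752 UMIs), 2.27-fold higher in TKO1 (2.05 to 2.52). That last call was lost when the set apart clusters of TKO1 were added (relative log2 ratio 0.74), over all retained cells (0.64) and when each cell was weighted equally (0.99).

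**Figure D1:**
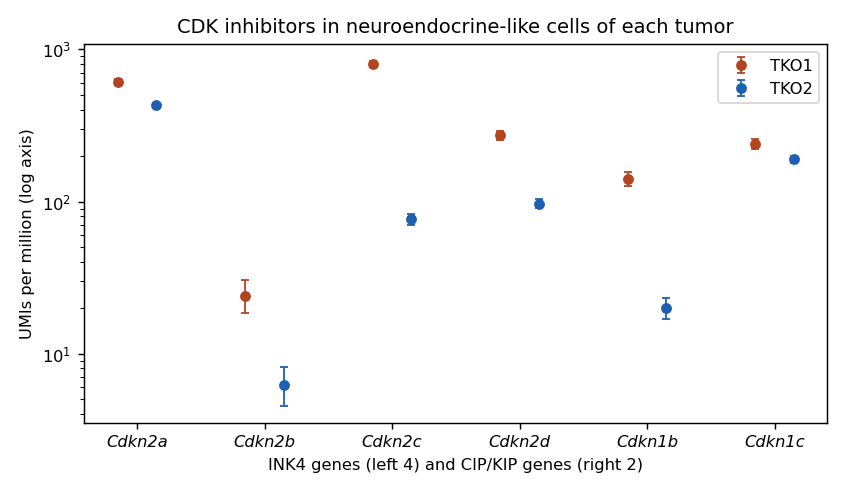
CPM (log axis) of each of the 6 genes in the neuroendocrine-like cells of TKO1 (orange) and TKO2 (blue), with 1 point per tumor and exact 95% Poisson intervals as bars. Cdkn2c and Cdkn1b are separated most between tumors, while Cdkn2a and Cdkn1c lie close together.

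The other members were close. Cdkn2a stood at 612 CPM in TKO1 (1584 UMIs, 583 to 643) and 432 CPM in TKO2 (3354 UMIs, 418 to 447), a relative log2 difference of 0.20 (0.11 to 0.28). Cdkn1c, which encodes p57, stood at 239 CPM (618 UMIs) and 189 CPM (1468 UMIs), a relative log2 difference of 0.03 (-0.11 to 0.17). These intervals leave out any 2-fold difference in either direction, as far as counting error goes. Thus 4 of the 6 members were called higher in TKO1 and 0 lower, where 19.9% of all tested genes were called higher and 16.3% lower. The share of cells with a UMI followed the same order when every cell was thinned to 1000 UMIs, which left out 536 cells of TKO1 and 361 of TKO2. At that depth Cdkn2c was seen in 46.7% of 1312 cells in TKO1 (44.0% to 49.5%) and in 6.36% of 3020 cells in TKO2 (5.51% to 7.29%), Cdkn1b in 12.5% and 2.19%, and Cdkn2a in 46.3% and 37.1%. Before thinning, Cdkn2c was seen in 56.3% of TKO1 and 13.9% of TKO2 cells. Macrophage-like cells, read here as a measure of free RNA although they may express the gene, showed Cdkn2c in 14.6% of 82 thinned cells of TKO1 and in 5.36% of 112 thinned cells of TKO2 (1.99% to 11.3%). Their median depth before thinning was 1433 and 1717.5 UMIs, against 1375.5 and 2107.5 UMIs in the neuroendocrine-like cells. In TKO2 the Cdkn2c level was also the same within error in both classes (76.5 and 75.5 CPM, log2 ratio -0.02, -0.81 to 0.67). The comparison of these classes therefore could not tell Cdkn2c in TKO2 apart from free RNA, while in TKO1 its share lay well over the macrophage-like share. In TKO2 the neuroendocrine-like cells held 594 of the 664 Cdkn2c UMIs of all retained cells. The macrophage markers summed to 1255 CPM over all retained cells of TKO2 and to 20.4 CPM in its neuroendocrine-like cells. The part of free RNA in the Cdkn2c level was not tested. The TKO2 shares of Cdkn2a (37.1% against 35.7%, 26.9% to 45.3%) and Cdkn2d (8.01% against 11.6%, 6.33% to 19.0%) were also close in both classes. For Cdkn2a the macrophage-like level of TKO2 was itself the higher one (582 against 432 CPM). These cells therefore cannot serve as a measure of its free RNA. Both Cdkn2c and Cdkn2d of TKO2 did differ among neuroendocrine-like cells by mitosis UMIs, as given below. At least 1 member was seen in 81.4% of thinned neuroendocrine-like cells of TKO1 and in 55.2% of TKO2, against 69.5% and 49.1% of thinned macrophage-like cells. Among single cells the Fano factor (variance over mean of thinned counts) was 1.63 for Cdkn2c and 1.76 for Cdkn2d in TKO1, against a median of 1.17 over 3534 genes with a mean of at least 0.05. In TKO2 it was highest for Cdkn1c among the members, at 1.55 against a median of 1.10. These medians were not matched to the mean of each member, which was 0.81 for Cdkn2c and 0.26 for Cdkn2d in TKO1. The part of level in these differences was not tested.

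Cdkn1a, the third CIP/KIP gene and a p53 target whose product is p21, differed further than any member, with 634 CPM in TKO1 (1640 UMIs) and 27.4 CPM in TKO2 (213 UMIs), an 18.7-fold relative difference in tumors that both carry the label Trp53-/-. Of the 43 pathway genes, 42 had enough UMIs, and 8 were called higher in TKO1 and 8 lower. Against 19.9% and 16.3% of all genes these shares are near the background, and the pathway genes are given as values. Among the CDK and cyclin partners, Cdk4, the INK4 target, was lower in TKO1 (431 against 881 CPM, relative log2 ratio -1.34). Cdk6, the other INK4 target, had 0 UMIs in TKO1 and 121 in TKO2. INK4 genes summed to 1710 CPM in TKO1 and 612 CPM in TKO2. Ccnd2 had 1 UMI in both tumors together, Ccnd1 8 and 46 UMIs, and Ccnd3 81 and 93 UMIs, so that Ccnd3 was the main D-type cyclin by UMIs, at 31.3 and 11.98 CPM. Of the pocket proteins and E2F factors, Rb1, Rbl2, E2f2 and Tfdp2 were called higher in TKO1 and E2f3 lower. Of the genes of p27 turnover and CDK activation, Cks1b (a cofactor of p27 destruction, 244 against 529 CPM), Cdc25a and Ccnh were lower in TKO1, and 0 of the 10 were called higher. Cks1b varied with cycling state, of which the tumors had different shares. Its relative log2 ratio between tumors was -2.79 among low, -1.25 among S-high and -0.55 among mitosis-high cells, and the last was not called. Of 6 repressors of the Cdkn2a locus only Cbx7 was called, higher in TKO1 (18.6 against 5.28 CPM), while Bmi1 and Suz12 had relative log2 ratios of -0.014 and 0.11. At 1.5-fold Ezh2 and Rnf2 were lower in TKO1. Within states, Ezh2 was called lower in TKO1 among low cells. Among S-high cells Rnf2 was called lower and Cbx8 higher, and among mitosis-high cells Cbx8 was called lower and Cbx7 higher.

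Cycling state was assigned in neuroendocrine-like cells thinned to 1000 UMIs from S phase and mitosis genes that include no member. Mitosis-high cells had at least 4 UMIs of 43 mitosis genes, S-high cells at least 4 UMIs of 32 S phase genes and fewer than 4 of the mitosis genes, and low cells at most 1 UMI of each list. TKO1 had 296 mitosis-high cells of 1312 (22.6%), 365 S-high and 321 low, and TKO2 had 1158 of 3020 (38.3%), 822 and 367. In TKO1, 76 cells, and in TKO2, 324 cells had 3 or 4 mitosis UMIs, next to the threshold. The median of mitosis UMIs in mitosis-high cells was 15 in TKO1 and 9 in TKO2, so this state was not matched between tumors. Mitosis-high cells were also deeper, with a median of 1885 UMIs against 1225 in low cells of TKO1, and 2445 against 1830 in TKO2. The part of depth in the differences between states was not tested.

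Cdkn2d was highest in mitosis-high cells in both tumors. In TKO1 it stood at 108 CPM in low cells (47 UMIs), 129 CPM in the cells between states, 127 CPM in S-high cells and 720 CPM in mitosis-high cells (436 UMIs). In TKO2 the same states had 38.6, 35.5, 47.4 and 168 CPM. Mitosis-high cells were therefore 6.62-fold above low cells in TKO1 (4.89 to 9.15) and 4.21-fold above them in TKO2 (2.90 to 6.35), relative to the median of all genes. These log2 ratios of 2.73 and 2.07 became 3.47 and 2.99 when states were set by rank within each tumor. For S-high over low cells the relative log2 ratios were 0.20 (-0.34 to 0.76) in TKO1 and 0.25 (-0.36 to 0.91) in TKO2. The latter became 1.83 with 2000 UMIs per cell and 1.46 by rank, both past 2-fold, while the former became -0.77 with 2000 UMIs per cell. The level was higher in cells with more mitosis UMIs. In TKO1 cells with 0 such UMIs had 108 CPM of Cdkn2d, those with 4 to 7 had 239, those with 8 to 15 had 488 and those with 16 or more had 1084 CPM. TKO2 cells in the same bins had 31.8, 107, 174 and 317 CPM. Cdkn2d was called higher in mitosis-high cells in both tumors, a direction shared by 9.99% of tested genes in TKO1 and 8.52% in TKO2. In TKO1 it was the only one of the 6 members called, and in TKO2 Cdkn2b was called lower, on 11 UMIs in mitosis-high and 11 in low cells (3.41 against 14.6 CPM), where 5.29% and 4.1% of genes were called lower in TKO1 and TKO2. The Cdkn2b call did not hold with another draw of the thinned UMIs. Its relative log2 ratio, -2.15 (-3.49 to -0.80), nevertheless stayed past 2-fold, between -3.07 and -1.58 over 11 alternatives, while its UMIs lay near the minimum of 20 needed for a call.

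**Figure D2:**
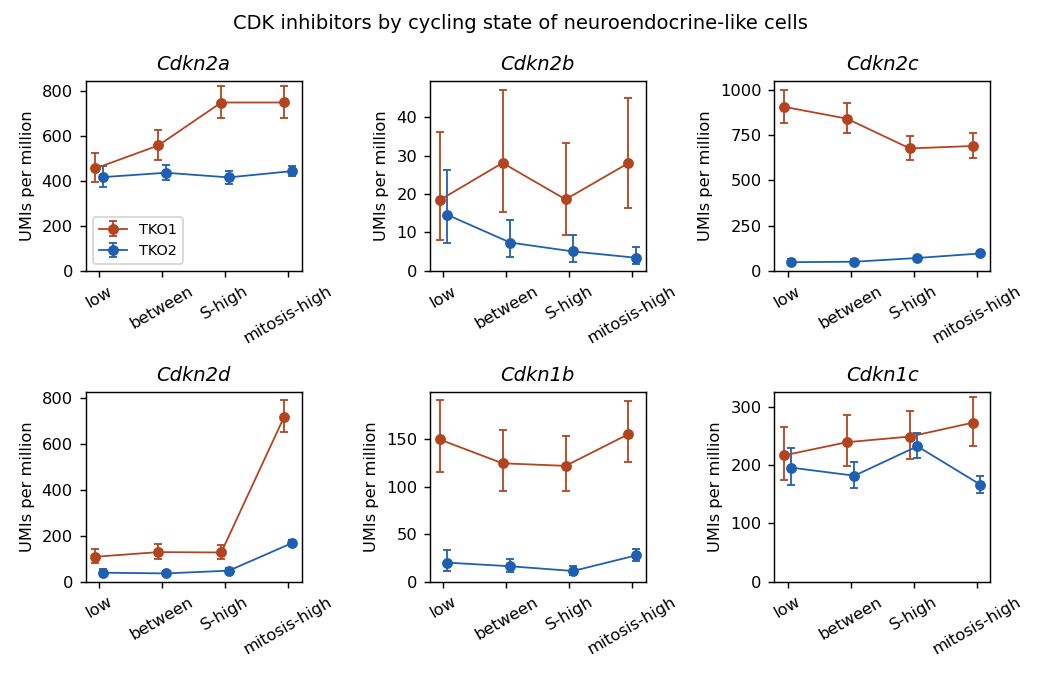
CPM of each gene in low, between, S-high and mitosis-high neuroendocrine-like cells of TKO1 (orange) and TKO2 (blue), with exact 95% Poisson intervals as bars, each vertical axis starting at 0. Cdkn2d stands highest at mitosis-high, at 720 and 168 CPM, and Cdkn2a lies between 416 and 444 CPM in the low, S-high and mitosis-high cells of TKO2.

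Cdkn2a was higher in cycling cells of TKO1, while in TKO2 its levels were close in the low, S-high and mitosis-high cells. In TKO1 it had 456 CPM in low cells, 750 in S-high and 750 in mitosis-high cells, with relative log2 ratios to low cells of 0.69 (0.44 to 0.94) and 0.71 (0.47 to 0.96). Along the S phase list, TKO1 cells with 0 S phase UMIs and fewer than 4 mitosis UMIs had 479 CPM and those with 9 or more had 881 CPM. The same bins of TKO2 had 454 CPM (388 to 529) and 337 CPM (269 to 417), with intervals that overlap. The bins of TKO2 between these ends lay from 403 to 435 CPM, so that only the last bin, of 109 cells, was lower. In TKO2 the 3 states had 417, 416 and 444 CPM, and the ratios to low cells were -0.05 (-0.24 to 0.14) and 0.04 (-0.13 to 0.23). The intervals of the tumors did not overlap for either ratio, and none of these differences reached 2-fold. Among low cells the tumors were close for Cdkn2a, at a relative log2 ratio of -0.08 (-0.34 to 0.18), while among mitosis-high cells TKO1 was higher by 0.54 (0.39 to 0.70).

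Cdkn2c differed between states in opposite directions in the tumors. In TKO1 it was lower in cycling cells, at 907 CPM in low, 677 in S-high and 691 in mitosis-high cells, with relative log2 ratios to low cells of -0.45 (-0.66 to -0.25) and -0.40 (-0.60 to -0.20). In TKO2 it was higher, at 47.9, 71.1 and 96.0 CPM, with ratios of 0.52 (-0.012 to 1.10) for S-high and 0.96 for mitosis-high cells, or 1.94-fold (1.37 to 2.83). The mitosis-high difference of TKO1 was not kept in deeper cells or by rank: it was -0.051 with 2000 UMIs per cell, -0.037 with states set by rank and 0.015 with more than 1000 detected genes. That of TKO2, which rested on 36 UMIs in low cells, was 1.97 with another draw of the thinned UMIs and 1.74 with 2000 UMIs per cell. The S-high ratio of TKO2 was past 2-fold under the same 2 alternatives, at 1.53 and 1.42, and by rank, at 1.48. The difference between tumors was thus widest among low cells, at 16.4-fold (11.7 to 23.8), and narrower among mitosis-high cells, at 6.20-fold (5.34 to 7.21). Along the mitosis list the levels of TKO1 had no single direction. Cells with 4 to 7 mitosis UMIs had 510 CPM and those with 16 or more had 812 CPM, against 758 CPM in cells with none. TKO2 cells in these bins had 80.9, 130 and 55.6 CPM.

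**Figure D3:**
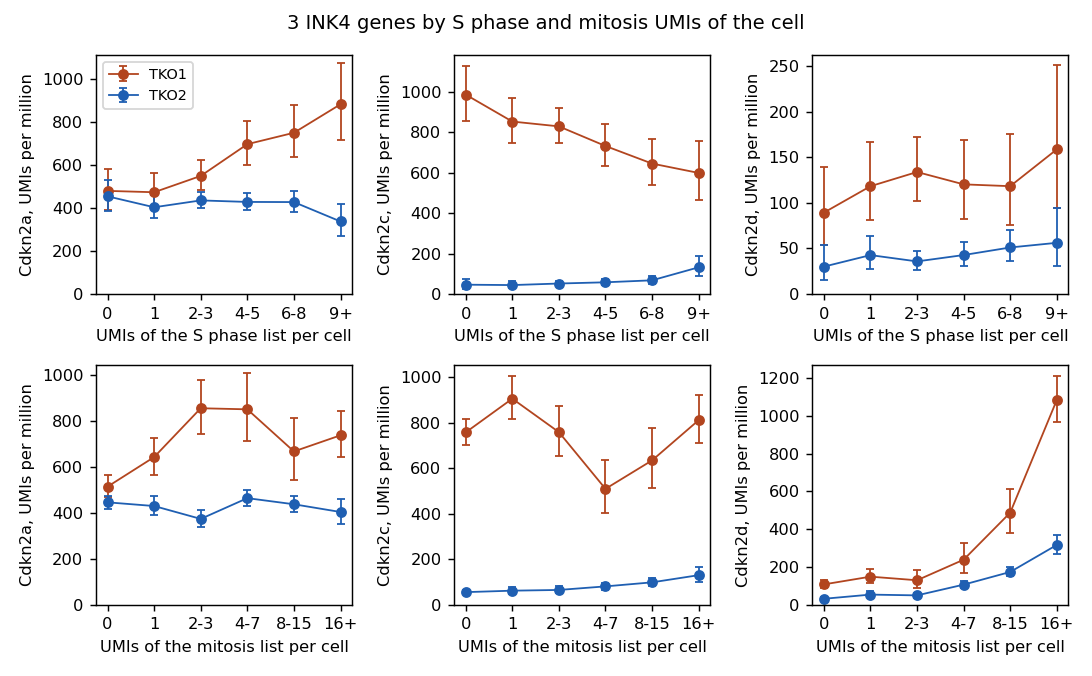
CPM of Cdkn2a, Cdkn2c and Cdkn2d in cells grouped by their UMIs of the S phase list (top row, cells with fewer than 4 mitosis UMIs) and of the mitosis list (bottom row) after thinning to 1000 UMIs, with exact 95% Poisson intervals, TKO1 in orange and TKO2 in blue. Cdkn2d is highest at 16 or more mitosis UMIs, at 1084 and 317 CPM, and along the S phase list Cdkn2c goes from 987 to 599 CPM in TKO1 and from 46.5 to 132 CPM in TKO2.

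Neither CIP/KIP member was called between states at the main settings, although Cdkn1b was in some alternatives. Cdkn1b had 150, 122 and 155 CPM in low, S-high and mitosis-high cells of TKO1, and 19.9, 11.1 and 27.6 CPM in TKO2, and each ratio to low cells had an interval that included 0. In TKO2, where low cells held 15 Cdkn1b UMIs, the mitosis-high ratio was 0.42 and became 2.20 with 2000 UMIs per cell, 1.40 with more than 1000 detected genes and 1.29 by rank. The S-high ratio there was -0.89 and became 1.44 with 2000 UMIs per cell, the opposite direction. In TKO1 the S-high ratio was -0.33 and became -1.28 with more than 1000 detected genes. Along the mitosis list Cdkn1b of TKO2 had 14.96 CPM (10.2 to 21.1) in cells with 0 mitosis UMIs and 48.6 CPM (31.4 to 71.7) in cells with 16 or more. Cdkn1c had 216, 249 and 273 CPM in TKO1 and 195, 232 and 166 CPM in TKO2. Its mitosis-high ratio was 0.33 (-0.05 to 0.71) in TKO1 and -0.28 (-0.54 to -0.0045) in TKO2, the latter becoming 0.38 with more than 1000 detected genes. Along the S phase list Cdkn1c of TKO2 lay between 178 and 205 CPM up to 8 UMIs and at 446 CPM (367 to 537) in the 109 cells with 9 or more. At the main settings S-high cells gave 0 members called higher in either tumor, where 6.48% of tested genes in TKO1 and 6.26% in TKO2 were called higher. In TKO2 this count became 3 with 2000 UMIs per cell, 2 by rank and 1 with another draw of the thinned UMIs. In TKO1, 0 of the 5 members with enough UMIs were called lower, where 3.83% of genes were, and in TKO2 1 of 6 was, again Cdkn2b (10 and 11 UMIs), where 2.15% of genes were. The excess of Cdkn1b and Cdkn2c in TKO1 was present within each state. For Cdkn1b the relative log2 ratio was 2.70 among low cells, 3.24 among S-high and 2.28 among mitosis-high cells. Within low, S-high and mitosis-high cells 3 of 5, 4 of 6 and 4 of 6 tested members were called higher in TKO1, where 18.8%, 17.6% and 17.6% of tested genes were, and 0 were called lower, where 16.8%, 16.1% and 15.1% of genes were. Cdkn2b, called in the latter 2 states, had too few UMIs among low cells (8 and 11) to be tested there. Mitosis-high cells of TKO1 had more mitosis UMIs than those of TKO2, as given above. The part of this in the mitosis-high comparison, which includes Cdkn2d, was not tested.

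Of the pathway genes outside the state lists, 10 of 28 were called higher in mitosis-high cells of TKO1, where 9.99% of all tested genes were, and 7 of 34 in TKO2, where 8.52% were. Called in both were E2f2, Cks1b, Cdc25b and Cdc25c, the last 2 being phosphatases that activate CDKs, and Suz12, a Polycomb subunit. Ccnd3 was called lower in both, at 21.5 against 46.1 CPM in TKO1 and 7.43 against 14.6 CPM in TKO2. Each of these levels rests on few UMIs, and the difference of TKO2 only just passed 2-fold, so that both calls are uncertain. Cks1b had 677 CPM in mitosis-high and 34.5 in low cells of TKO1, and 856 and 207 CPM in TKO2. In S-high cells 9 of 28 were called higher in TKO1, where 6.48% of all genes were, and 5 of 33 in TKO2, where 6.26% were. Among S-high cells, the kinase gene Cdk2 and its cyclin Ccne1 were called higher in both tumors, as were E2f2 and Suz12. Ccne1 stood at 110 against 6.91 CPM in TKO1 and 56.5 against 21.3 in TKO2. The low-cell value of TKO1 is the level of only 3 UMIs, so that the size of that difference is uncertain. Cdkn1a was called higher in S-high cells of both tumors (989 against 419 CPM in TKO1, and 31.8 against 14.6 in TKO2). Its low-cell level in TKO2 also rests on few UMIs.

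Across neuroendocrine-like clusters, which were found from the same counts and give a description only, and apart from the scarce Cdkn2b, Cdkn2d ranged widest, from 58.9 to 753 CPM over the 5 clusters of TKO1 and from 28.4 to 411 CPM over the 8 of TKO2. Its highest clusters were 6 of TKO1 and 7 of TKO2, those with the highest mitosis-list level in each tumor (16693 and 17577 CPM). Cdkn2a ranged least in TKO2, from 314 to 557 CPM, and in TKO1 from 422 to 778 CPM. Cdkn2c ran from 309 CPM in cluster 7 of TKO1, a cluster led by Mycl and the neurofilament genes Nefm and Nefl, to 1108 CPM in cluster 0. Even that lowest value lay over the highest among neuroendocrine-like clusters of TKO2, 160 CPM in cluster 7. Cdkn1b ran from 119 to 170 CPM in TKO1 and from 10.0 to 32.6 CPM in TKO2, again with no overlap. Cdkn1c varied within both tumors, from 88.3 to 347 CPM in TKO1 and from 62.7 to 409 CPM in TKO2, where it was itself the leading gene of cluster 1. Over the 13 clusters, centred within each tumor, the genes most alike to Cdkn2d were Tacc3 (Pearson r = 0.98, a gene of the mitosis list), Nucks1 (0.97) and Arhgap11a (0.97). For Cdkn1c they were Acat2 (0.93), Zfp428 (0.92) and Sf3a3 (0.91), for Cdkn2a Ensa (0.91), Dpy30 (0.91) and Fbxw2 (0.90), and for Cdkn2c Hoxb2 (0.90), Ppp3ca (0.89) and Ate1 (0.89). These are the highest of 4052 correlations over few clusters of shared libraries, and describe likeness only.

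**Figure D4:**
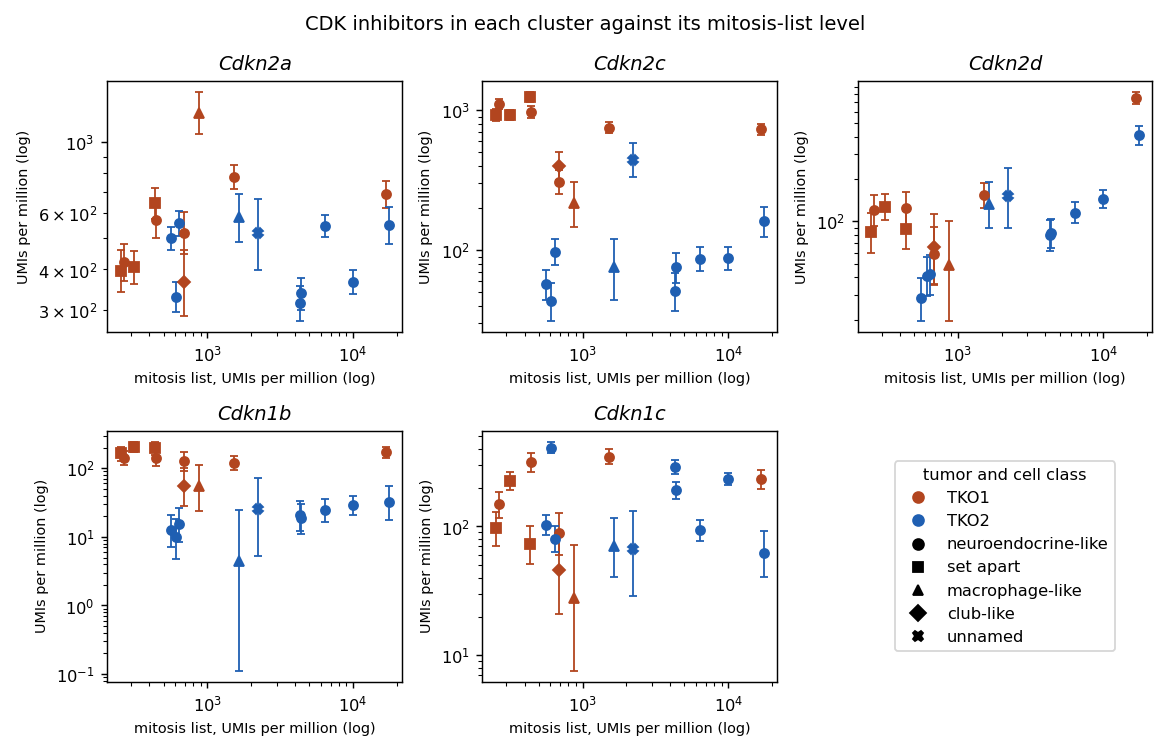
CPM of 5 of the genes in each cluster against the summed level of the mitosis list in that cluster (both axes logarithmic), coloured by tumor (TKO1 orange, TKO2 blue) and shaped by cell class, with exact 95% Poisson intervals. In both tumors Cdkn2d is highest in the neuroendocrine-like cluster with the highest mitosis list, and the macrophage-like cluster of TKO1 has the highest Cdkn2a level, 1231 CPM.

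The set apart clusters of TKO1 kept its high levels of Cdkn2c (1016 CPM, 1667 UMIs) and Cdkn1b (190 CPM, 312 UMIs), and had less Cdkn2d (104 CPM) and Cdkn1c (145 CPM) than the neuroendocrine-like cells. Their mitosis list stood between 254 and 439 CPM, close to neuroendocrine-like clusters 0 and 1 (268 and 442 CPM). With these cells included, Cdkn2c remained called higher in TKO1, and so did Cdkn1b and Cdkn2b.

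Taken as 1 class, macrophage-like cells had more Cdkn2a than the neuroendocrine-like cells of the same tumor. The 98 macrophage-like cells of TKO1 had 1231 CPM (176 UMIs, 1056 to 1426), 2.01-fold over the neuroendocrine-like cells (1.71 to 2.35), and the 121 of TKO2 had 582 CPM (131 UMIs, 486 to 690), 1.35-fold over them (1.12 to 1.60). At 1000 UMIs per cell Cdkn2a was seen in 59.8% of 82 macrophage-like cells of TKO1 and 35.7% of 112 of TKO2, against 46.3% and 37.1% of neuroendocrine-like cells, so that in TKO2 the share did not follow the CPM. The 10 cells with most Cdkn2a held 36.4% of its UMIs in TKO1 and 35.1% in TKO2. All 18 neuroendocrine markers were detected in these cells of both tumors (4552 and 746 CPM in sum), and the part of free RNA or mixed droplets was not tested. Within TKO1 the ratio of Cdkn2a to Cdkn2c was unlike that of the neuroendocrine-like cells: Cdkn2a made up 85.0% of the UMIs of both genes in macrophage-like cells (79.4% to 89.6%) and 43.3% in neuroendocrine-like cells (41.7% to 44.9%). In TKO2 these shares were 88.5% (82.2% to 93.2%) and 85.0% (83.8% to 86.1%). In a split chosen after these values were seen, macrophage-like cells with at least 1 UMI of the alveolar macrophage genes Chil3, Ear2 or Marco had 1822 CPM of Cdkn2a in TKO1 (58 cells) and 994 CPM in TKO2 (47 cells), and those with none had 416 CPM (40 cells) and 319 CPM (74 cells). The levels of the cells with none lay under those of the neuroendocrine-like cells, 612 CPM in TKO1 and 432 CPM in TKO2. With more than 1000 detected genes required, 8 macrophage-like cells of TKO1 remained and their Cdkn2a was 0.23 log2 units over the neuroendocrine-like level, while the 31 that remained in TKO2 had 393 CPM against 424 CPM in neuroendocrine-like cells, the opposite order to that of all retained cells.

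The other members were mostly low in macrophage-like cells. Cdkn2c had 217 CPM in TKO1 and 75.5 CPM in TKO2, Cdkn1c 28.0 and 71.0 CPM, Cdkn1b 55.9 CPM and 1 UMI, and Cdkn2d 48.9 and 133 CPM. Cdkn2b had 3 UMIs in TKO1 and 7 in TKO2, where 31.1 CPM compared with 6.19 CPM in neuroendocrine-like cells. The 105 club-like cells of TKO1, airway epithelial cells led by Scgb1a1, had 366 CPM of Cdkn2a and 402 CPM of Cdkn2c, and Cdkn2a made up 47.7% of the UMIs of both genes (39.5% to 56.0%), an interval that overlapped that of the neuroendocrine-like cells. Their level of Cdkn2c was 2.00-fold lower than in neuroendocrine-like cells (1.59 to 2.53). In the club-like cells 17 of the 18 neuroendocrine markers were detected, at 6798 CPM in sum. The part of free RNA or mixed droplets in the club-like levels was not tested.

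Cluster 9 of TKO2, 66 cells with both club markers (63880 CPM in sum) and neuroendocrine markers (8692 CPM), was left unnamed. It had 443 CPM of Cdkn2c (53 UMIs, 332 to 580), 5.79-fold over the neuroendocrine-like cells of its own tumor (4.29 to 7.68) and higher than all 8 of their clusters. Its Cdkn1b rested on 3 UMIs (25.1 CPM, 5.18 to 73.3), its Cdkn2a was 519 CPM and its Cdkn1a 192 CPM. None of its barcodes was retained in the other library (0 of 66). As only 11 of all retained barcodes were shared, this count cannot show where the cells came from.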

How the data were processed

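Each of 2 mouse tumors gave 1 library, with TKO1 and TKO2 taken from the labels as groups. The authors deposited, per tumor, a matrix of UMI counts per gene and barcode, and the submitters' processing notes name Cell Ranger, Seurat and mm10; their versions are not given in the sources used here. The counts were used as deposited. The filter kept barcodes in which over 500 genes were detected. Clusters were found separately in the 2 tumors with Seurat 5.3.0 (1000 variable genes, 10 principal components, resolution 0.8). Clusters were neuroendocrine-like when at least 3 fixed neuroendocrine markers lay 2-fold over macrophage-like cells and the 10 leading genes by fold held no more markers of another type. Scrublet (scanpy 1.11.5) called 0 doublets in both tumors, which for this many cells means the call did not work, so the highest 5% of scores were removed as an alternative.

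UMIs were summed over cells and divided by the total of the same cells. Intervals at 95% are exact Poisson for levels, Clopper-Pearson for shares and conditional binomial for ratios, and cover counting error only. In calls, genes needed at least 20 UMIs over both groups, and a count of 0 was set to 3 for the median over genes. Class comparisons were not centred. Cells are not replicates, so no p-value was computed. Thinning drew 1000 UMIs per cell without replacement (seed 1). The functions were tested on simulated data. Likeness used log2(CPM + 10), for members with at least 200 UMIs and genes with at least 100 UMIs in the neuroendocrine-like cells of each tumor. Genes named are the 6 members, pathway genes at 2-fold or partnering a member, the 3 most alike genes, cell type markers and deleted genes. Members and lists were chosen with earlier results of these data known. Gene positions are from GENCODE on GRCm38 and promoter windows from RefSeq on GRCm38.p6. Alternatives covered barcode filters, clustering resolution, doublet scores, scaling, thinning and state thresholds.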

Additional observations from a re-analysis of the deposited data

Results flagged for a closer look

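Cdkn2c was flagged because its difference between mitosis-high and low cells had opposite signs in the tumors, at -0.40 on the relative log2 scale in TKO1 and 0.96 in TKO2, with counting intervals on opposite sides of 0. The difference between tumors was not tested, as each tumor is 1 library, and under the alternatives the value ranged from -0.45 to 0.015 in TKO1 and from 0.89 to 1.97 in TKO2. Barcodes with 500 detected genes or fewer, which entered no comparison, were flagged because they held the members at a level far over the limit that a count of 0 allows, 1760 CPM in 1321 barcodes of TKO1 and 790 CPM in 248 barcodes of TKO2, against 1976 and 829 CPM in the retained cells.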

How the results depend on the processing

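No paired analysis was possible because each tumor has 1 library and no test was run, and no library could be left out. Of 482 values recomputed under alternatives, 0 called values reversed, 397 stayed within the counting interval of the main value or within 1.5 times a count, and 85 moved. Clusters 2, 3 and 4 of TKO1 were added as an alternative chosen after seeing the data, as were the split of macrophage-like cells and the comparison of tumors within states.

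Between tumors, Cdkn2c moved to 2.90 with more than 1000 detected genes and to 3.39 without subtracting the median of all genes, and Cdkn1b to 2.82 without it. The count of members called higher was 3 to 4 and that called lower 0 under every alternative run. Cdkn2d in mitosis-high against low cells moved to 3.47 in TKO1 and 2.99 in TKO2 with states set by rank within each tumor, and to 3.22 in TKO2 with 2000 UMIs per cell. In TKO2 the members called higher in mitosis-high cells became 3 with 2000 UMIs per cell, with more than 1000 detected genes and by rank, and 2 with at least 6 UMIs for a state, without median subtraction and with thinning seed 2. Those called lower became 0 with 2000 UMIs, at least 6 UMIs, more than 1000 genes and seed 2. In S-high cells of TKO2 the members called higher became 3 with 2000 UMIs, 2 by rank and 1 with seed 2, and those called lower 0 with 2000 UMIs, at least 6 UMIs, more than 1000 genes and seed 2. In S-high cells of TKO1, 1 member was called lower with more than 1000 genes. Cdkn2a in macrophage-like against neuroendocrine-like cells of TKO1 moved to 0.23 with more than 1000 and to 1.34 with more than 200 detected genes. At 1.5-fold the pathway genes called higher were 16 (TKO1) and 14 (TKO2) in mitosis-high and 14 and 11 in S-high cells, those called lower in S-high cells of TKO1 were 3, and 15 were lower in TKO1 than in TKO2. The causes were not tested. Cdkn2b has few UMIs at this depth, and in TKO1 its direction between states could not be read, as both intervals included 0. In TKO2 its ratio to low cells was negative under every alternative run, but its calls were lost under some of them.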
